A study of Mus musculus with 16 samples.

Results

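The 10 genes described here encode transcription factors of the endothelial lineage: the Ets factors *Erg*, *Fli1*, *Ets1* and *Ets2*, the SoxF factors *Sox7*, *Sox17* and *Sox18*, the forkhead factors *Foxf2* and *Foxc1*, and the basic helix-loop-helix factor *Tal1*. They were chosen by name, as factors that set endothelial identity, and by no rule on their values, though earlier results of these data were known. All 10 were found among the 39057 rows of the count table and all 10 passed the filter on low counts, which left 12481 genes.

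Ets proteins bind DNA at a short core of the letters GGAA, and most endothelial promoters and enhancers carry such sites. ERG and FLI1 keep mature endothelial cells in their differentiated state, and TAL1, which endothelial and blood progenitors share, acts in a complex with GATA, LMO2 and LDB1 proteins. The SoxF proteins act in arterial, lymphatic and barrier development, and FOXF2 and FOXC1 are required for a normal cerebral vasculature.

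The cells were primary brain endothelial cells from the cerebral cortex of *APOE3* and *APOE4* targeted replacement mice, in which a human *APOE* isoform is expressed from the endogenous mouse promoter in place of mouse *Apoe*. There were 8 *APOE3* and 8 *APOE4* cultures, with 4 from male and 4 from female mice per genotype, each from 1 brain in 1 well. Replicate numbers ran from 25 to 33 in *APOE3* and from 35 to 43 in *APOE4*. Any effect of that order therefore cannot be told apart from genotype. The mice were 21 to 28 days old, the cultures had been selected with 8 μg/ml puromycin and grown to confluence, and none received any further treatment. Polyadenylated RNA was sequenced, and total counts per culture were 12717847 to 18624417. Human *APOE* was present in every culture, at 1003 to 1425 CPM (counts scaled to a common library size) in *APOE3* and 609 to 1013 CPM in *APOE4*, and mouse *Apoe* reached at most 290 counts. The comparison asks whether the *APOE* genotype of the cells goes with a different level of these regulators.

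In sum, endothelial markers were far above those of other cell types. All 23 brain endothelial markers passed the filter, led per kb of exon by *Cldn5*, a tight junction protein (926 CPM per kb), *Cdh5*, the endothelial cadherin (817 CPM per kb), and *Pecam1*, a junctional adhesion protein (584 CPM per kb). The lowest of them per kb were *Ocln* (37.0 CPM per kb), *Slco1c1* (15.8 CPM per kb) and *Mfsd2a* (1.52 CPM per kb, 36 to 82 counts). The summed level of the endothelial markers was 22887 to 24460 CPM in *APOE3* and 22384 to 24846 CPM in *APOE4*. Of 13 pericyte and smooth muscle markers 8 passed the filter, with a summed level of 189 to 356 CPM in *APOE3* and 224 to 341 CPM in *APOE4*. *Tagln* (85.4 CPM per kb) and *Acta2* (37.4 CPM per kb), contractile genes of smooth muscle, carried most of that sum, while *Pdgfrb*, the receptor that defines pericytes, was at 0.989 CPM per kb and *Cspg4* at 0.616 CPM per kb. Mural cells also use *Foxf2* and *Foxc1*, and none of the 8 mural markers tested was called between genotypes (median log2 fold change 0.22); their part in the forkhead levels was not tested. Of 9 fibroblast markers 6 were tested, with a summed level of 27.7 to 83.7 CPM in *APOE3* and 29.7 to 113 CPM in *APOE4*. Their median log2 fold change was 0.30. Of these *Fbln1*, a matrix glycoprotein, was higher with *APOE4* (0.90, edgeR adjusted p = 0.00542), *Col3a1* was at 1.06 (edgeR adjusted p = 0.0786), and the part of this in the members' differences was not tested. Of 12 microglia and macrophage markers 2 passed, *Cd68* (74 to 118 counts) and *Mrc1* (15 to 48), while *Cx3cr1*, *P2ry12* and *C1qa* did not exceed 3 counts in any culture. Of 8 astrocyte markers 2 passed, *Gja1* (444 to 739 counts) and *Aldh1l1* (10 to 70). Of 6 neuron markers 3 passed, *Tubb3* (108 to 222 counts), *Stmn2* (20 to 71) and *Rbfox3* (6 to 39). None of 8 erythroid markers exceeded 3 counts, and *Gata1*, the erythroid partner of TAL1, had 0 counts throughout. In bulk cultures fewer cells of a type and less RNA per cell cannot be told apart.

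The letters bound by Ets proteins were looked up in the promoters of the members. RefSeq windows (GRCm38.p6) were at hand for 5 of the 10, *Erg*, *Ets2*, *Foxf2*, *Foxc1* and *Tal1*, as 8 windows of 250 bases before an annotated start, and were not at hand for *Fli1*, *Ets1*, *Sox7*, *Sox17* and *Sox18*. The windows of *Ets2*, *Foxf2* and *Foxc1* overlap annotated exons and are not printed. Shown are 1 of the 3 *Erg* windows, whose gene varied least among the members, and both *Tal1* windows, all outside annotated exons, 5′ to 3′ on the strand of the gene. Capitals mark each GGAA or its complement TTCC.
Erg, chr16:95459349-95459598, minus strand: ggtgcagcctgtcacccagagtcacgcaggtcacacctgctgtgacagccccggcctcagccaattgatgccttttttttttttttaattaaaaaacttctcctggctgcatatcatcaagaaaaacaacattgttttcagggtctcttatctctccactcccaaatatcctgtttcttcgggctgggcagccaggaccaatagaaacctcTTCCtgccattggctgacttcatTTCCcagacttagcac
Tal1, chr4:115056176-115056425, plus strand: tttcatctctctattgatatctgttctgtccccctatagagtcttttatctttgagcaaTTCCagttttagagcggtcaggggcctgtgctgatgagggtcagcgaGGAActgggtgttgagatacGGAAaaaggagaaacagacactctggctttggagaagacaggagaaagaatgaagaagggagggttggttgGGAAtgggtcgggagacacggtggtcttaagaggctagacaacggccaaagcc
Tal1, chr4:115057561-115057810, plus strand: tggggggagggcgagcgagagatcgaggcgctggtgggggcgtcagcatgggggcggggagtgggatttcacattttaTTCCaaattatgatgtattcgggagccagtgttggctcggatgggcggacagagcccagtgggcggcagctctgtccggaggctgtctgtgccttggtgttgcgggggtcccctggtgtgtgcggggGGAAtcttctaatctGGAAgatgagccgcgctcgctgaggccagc

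The *Erg* window held 2 matches to GGAA on both strands and the *Tal1* windows 4 and 3. The other *Erg* windows held 4 and 0, and the *Ets2*, *Foxf2* and *Foxc1* windows 1 each. Of 32817 windows of this length 93.4% held at least 1 match, with a median of 3, and 33.4% held 4 or more. Each motif was searched on both strands, and matches of different motifs may overlap. GATA, the letters of GATA factors, had 4 matches in the first *Tal1* window and 3 in the printed *Erg* window, with 1 each in another *Erg* window and in that of *Ets2*, and 53.6% of all windows held at least 1. ACAAT, a core of Sox sites, had 1 match in the printed *Erg* window and none in the other 7, against 27.7% of all windows with a match. TGTTTAC, a forkhead core, was in none of the 8 windows and in 3.16% of all windows. CANNTG, the E-box bound by TAL1 and its partners, had 2 matches in the printed *Erg* window and 1 in that of *Foxf2*, against 66.2% of all windows with a match. These matches describe letters only and are not binding sites, and no match says nothing about a factor.

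Levels per kb of merged exons put *Sox18* first and *Foxc1* last. *Sox18* was at 430 ± 35.8 CPM per kb (SD, n = 16), rank 51 of the genes tested. *Erg* followed at 118 ± 3.93 and *Fli1* at 114 ± 8.71 CPM per kb, and these 2 did not differ beyond their spread, with *Erg* higher in 11 of 16 cultures. *Ets2* was at 62.5 ± 11.9, *Sox7* at 56.4 ± 4.22 and *Foxf2* at 49.4 ± 4.65 CPM per kb, and their ranges overlapped, with *Ets2* above *Sox7* in 10 and *Sox7* above *Foxf2* in 12 of 16 cultures.

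*Ets1* was at 38.4 ± 2.29 CPM per kb, below *Foxf2* in 16 of 16 cultures, and *Sox17* was at 32.8 ± 3.09, below *Ets1* in 15 of 16. *Tal1* was at 14.6 ± 1.28 and *Foxc1* at 12.4 ± 0.698 CPM per kb, with *Tal1* higher in 14 of 16 cultures. The lowest of them, *Foxc1*, still stood at the 70.6th percentile of genes tested. The 3 SoxF genes summed to 519 ± 36.3 and the 4 Ets genes to 333 ± 20.9 CPM per kb (SD, n = 16). These orders depend on the annotated exon length, 1620 bases for *Sox18* and 8476 for *Ets1*. In CPM not divided by length, *Tal1* (mean 64.1) was below *Foxc1* (72.6). *Sox18* supplied 83.3% ± 1.17 of the SoxF sum in *APOE3* and 82.2% ± 1.41 in *APOE4* (SD, n = 8).

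**Figure D1:**
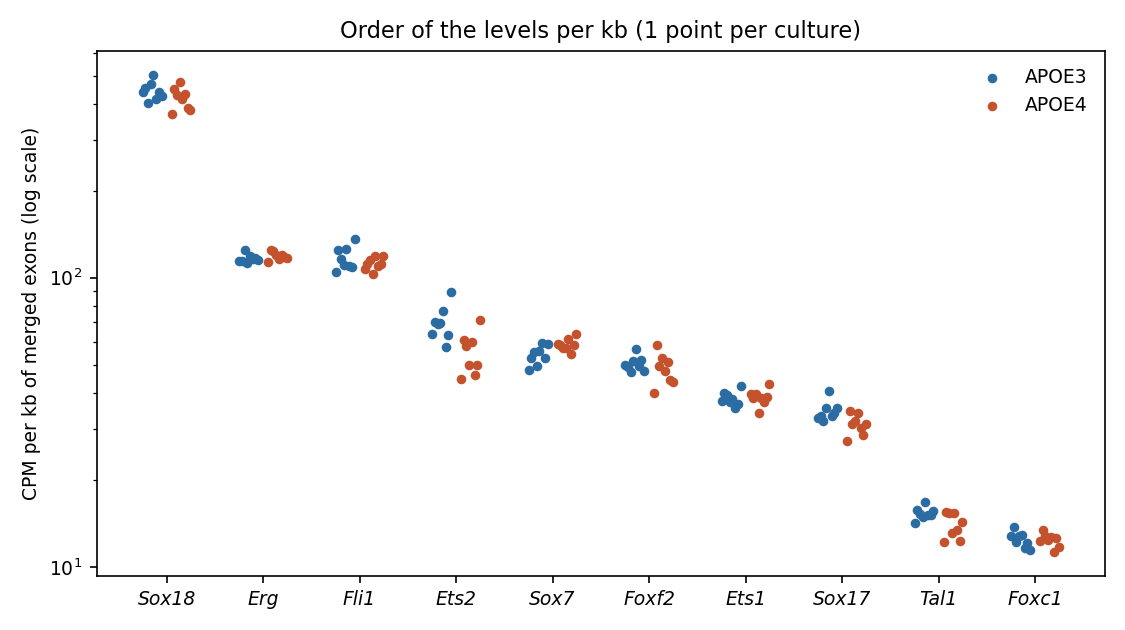
Levels of the 10 factors in CPM per kb of merged exons on a log scale, with 1 point per culture and *APOE3* and *APOE4* side by side, in falling order of the mean. *Sox18* stands apart at 369 to 504 CPM per kb, and *Erg* and *Fli1* overlap.

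Of the 10 factors, 1 was lower with *APOE4* (*Ets2*, edgeR quasi-likelihood test with adjusted p under 0.05) and 0 were higher. Over all genes tested, 12.8% were called, 6.09% lower and 6.71% higher, so the share of the members called, 10%, was near the background. At an unadjusted p under 0.05 there were 4 members, *Ets2*, *Sox17*, *Sox7* and *Tal1*, against 29.0% of all genes tested. The median log2 fold change of the members was -0.06, with 3 above 0 and 7 below, beside a median of -0.00 over all genes tested. In none of the 10 were the genotypes without overlap, which held for 0.625% of genes tested.

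**Figure D2:**
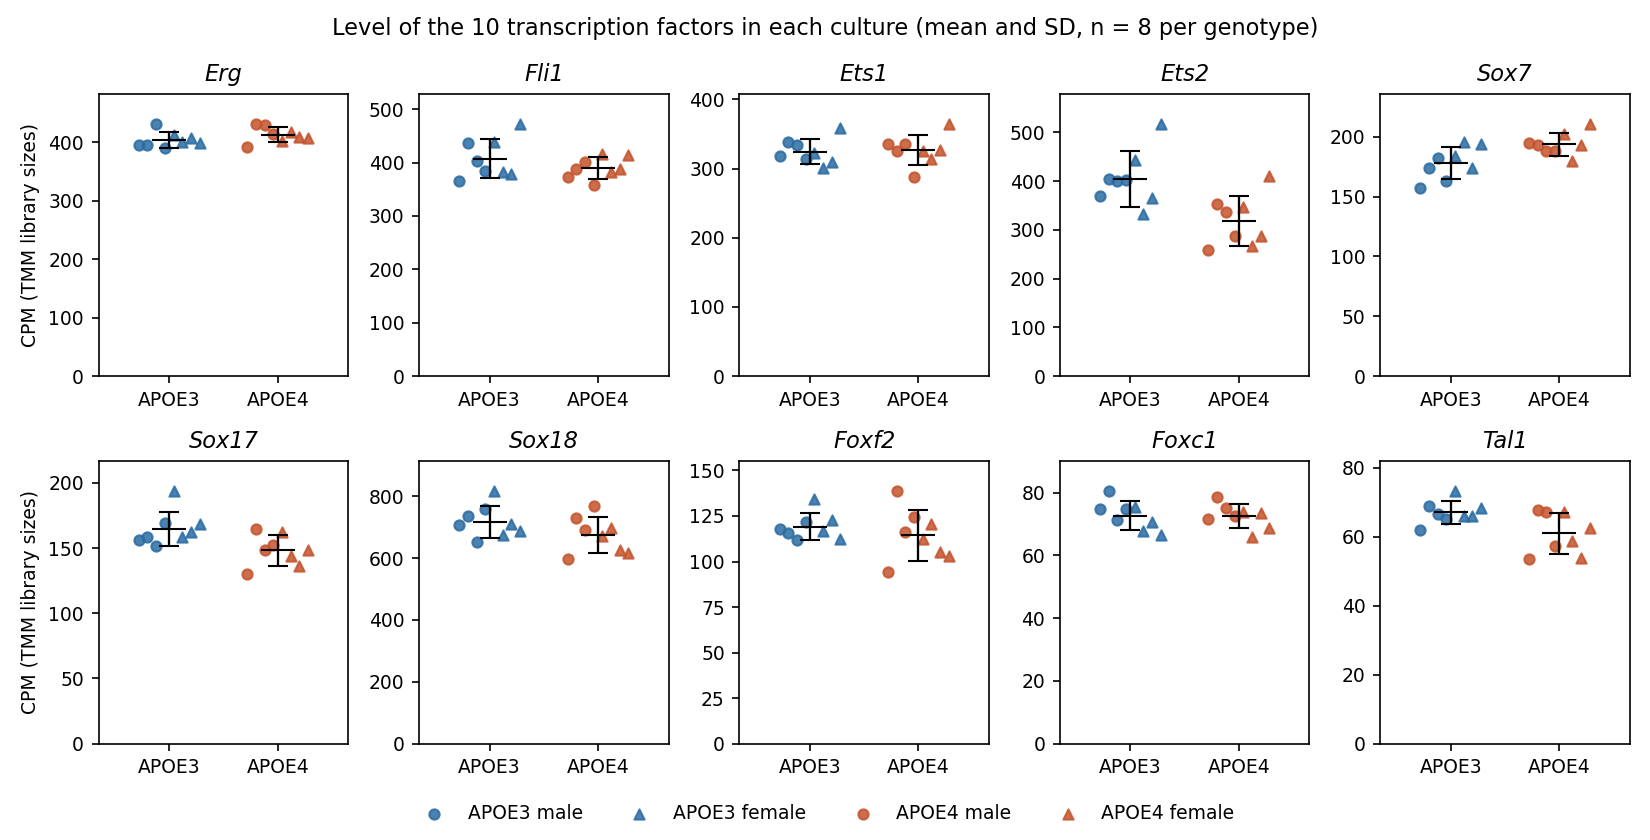
CPM of each factor in every culture, by genotype, with circles for male and triangles for female mice, and bars for the mean and SD of 8 cultures; each panel has its own axis from 0. *Ets2* is the 1 factor whose difference was called, and its genotypes overlap between 332 and 411 CPM.

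Among the Ets factors, *Ets2*, a target of MAP kinase signalling that also has roles in endothelial survival, was lower with *APOE4*. In *APOE3* cultures its lowest, median and highest levels were 332, 401 and 518 CPM, and in *APOE4* cultures 259, 312 and 411 CPM. Of the *APOE4* cultures 7 of 8 lay below the *APOE3* median and 4 of 8 below the lowest *APOE3* culture, and the ranges overlapped. The means were 404 ± 56.5 and 318 ± 52.0 CPM (SD, n = 8 each). The log2 fold change was -0.34 (SE 0.0923, 95% confidence interval -0.54 to -0.15), or -21.2% (interval -31.1% to -9.97%), with an edgeR adjusted p of 0.0214. The call was kept when each culture in turn was left out, with log2 fold changes of -0.41 to -0.29 and edgeR adjusted p of 0.00643 to 0.0494, the last without *APOE4* replicate 41. It was lost when a cell cycle score (-0.01, edgeR adjusted p = 0.988) or an endothelial marker score (-0.13, edgeR adjusted p = 0.474) was added to the fit, as described further on. Of all genes tested, 9.15% had a larger absolute change. *Ets2* was 20.4% ± 1.60 of the summed Ets level in *APOE3* and 16.9% ± 1.92 in *APOE4* (SD, n = 8).

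*Erg*, its neighbour on chromosome 16, differed little between cultures or genotypes. Its lowest, median and highest levels were 389, 399 and 431 CPM in *APOE3* and 392, 412 and 431 CPM in *APOE4*, and the ranges nearly coincided. The log2 fold change was 0.03 (SE 0.0298, edgeR adjusted p = 0.510), and the interval of the difference ran from -2.04% to 6.76%. Its SD of log2 CPM within genotypes, 0.0463, was at the 1.69th percentile of genes tested, while that of *Ets2*, 0.213, was at the 71.9th. The level of *Erg* per kb was at the 97.6th percentile. Genes of like level were not compared, so the low rank of its SD is not shown to be particular to *Erg*.

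*Fli1*, the closest relative of *Erg*, was at 366, 394 and 473 CPM (lowest, median, highest) in *APOE3* and at 357, 388 and 416 CPM in *APOE4*. The 3 highest cultures were *APOE3* and the remainder overlapped. Its log2 fold change was -0.06 (SE 0.0496, edgeR adjusted p = 0.417), with an interval from -11.0% to 2.75%. *Ets1*, a factor of sprouting vessels, was at 301, 320.5 and 358 CPM in *APOE3* and at 288, 326 and 365 CPM in *APOE4*. These groups overlapped throughout, with a log2 fold change of 0.01 (SE 0.0432, edgeR adjusted p = 0.910) and an interval from -5.39% to 7.19%.

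The SoxF factors were not called, and *Sox7* and *Sox17* had estimates of opposite sign. *Sox7* was at 158, 179 and 195 CPM (lowest, median, highest) in *APOE3* and at 179.8, 193 and 211 CPM in *APOE4*. All 8 *APOE4* cultures lay above the *APOE3* median, and 4 *APOE3* cultures lay below the lowest *APOE4* culture. Its log2 fold change was 0.12 (SE 0.0444, edgeR adjusted p = 0.0743), with a 95% interval of 0.03 to 0.21 on the log2 scale before adjustment over genes. It was called with limma voom (adjusted p = 0.0473) and without *APOE3* replicate 31 (edgeR adjusted p = 0.0329).

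*Sox17*, the arterial member of the family, was at 152, 160.5 and 194 CPM in *APOE3* and at 130.0, 149 and 165 CPM in *APOE4*. Of the *APOE4* cultures 6 of 8 lay below the *APOE3* median and the ranges overlapped. The log2 fold change was -0.15 (SE 0.0518, edgeR adjusted p = 0.0589). It was called with the DESeq2 Wald test (adjusted p = 0.0401) and in 4 of the 16 edgeR fits that left out 1 culture. These were without *APOE3* replicate 27 or 31 or *APOE4* replicate 36 or 39 (adjusted p = 0.0316 to 0.0495). With the cell cycle score added its log2 fold change was 0.01, and with the endothelial score -0.05 (edgeR adjusted p = 0.982 and 0.720). *Sox18*, mutated in a human disorder of hair and lymphatic vessels, was at 652, 709 and 816 CPM in *APOE3* and at 597, 682 and 767 CPM in *APOE4*. Its ranges overlapped and its log2 fold change was -0.09 (SE 0.0526, edgeR adjusted p = 0.270), with an interval from -12.9% to 1.35%.

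The log2 ratio of *Sox7* to *Sox17*, computed within each culture and chosen after their values were seen, was 0.11 ± 0.142 in *APOE3* and 0.39 ± 0.125 in *APOE4* (SD, n = 8). All 8 *APOE4* cultures lay above the *APOE3* median of this ratio, and the ranges, -0.07 to 0.30 and 0.23 to 0.58, overlapped. The log2 ratio of *Ets1* to *Ets2*, also chosen after its values were seen, was -0.31 ± 0.131 in *APOE3* and 0.05 ± 0.192 in *APOE4*. Again 8 of 8 *APOE4* cultures lay above the *APOE3* median. Over the 10 ratios computed within families, that count ran from 4 of 8 (*Erg* to *Ets1*) to 8 of 8 (also *Fli1* to *Ets2*). It was 5 of 8 for *Foxc1* to *Foxf2* and 6 of 8 for *Sox18* to *Sox17*. These ratios are given with no test, since they hold the same values as the fold changes above.

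Neither forkhead factor was called. *Foxf2*, a factor of brain mural and endothelial cells, was at 112, 117 and 134 CPM (lowest, median, highest) in *APOE3* and at 94.4, 114 and 139 CPM in *APOE4*, so the *APOE4* cultures held both ends. Its log2 fold change was -0.06 (SE 0.0607, edgeR adjusted p = 0.556), with an interval from -12.1% to 4.74%. *Foxc1*, which acts in the meninges and cerebral vessels, was at 66.6, 72.9 and 80.4 CPM in *APOE3* and at 65.9, 73.0 and 78.6 CPM in *APOE4*. Its log2 fold change was -0.00 (SE 0.0418, edgeR adjusted p = 0.970), and the interval from -6.08% to 5.97% leaves out larger differences.

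*Tal1* was at 62.1, 66.4 and 73.2 CPM in *APOE3* and at 53.5, 60.7 and 67.8 CPM in *APOE4*. Of the *APOE4* cultures 4 of 8 lay below the lowest *APOE3* culture and 3 lay above the *APOE3* median. The log2 fold change was -0.14 (SE 0.0523, edgeR adjusted p = 0.0895), and it was called in 1 of 16 fits with a culture left out, without *APOE4* replicate 36 (edgeR adjusted p = 0.0487).

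**Figure D3:**
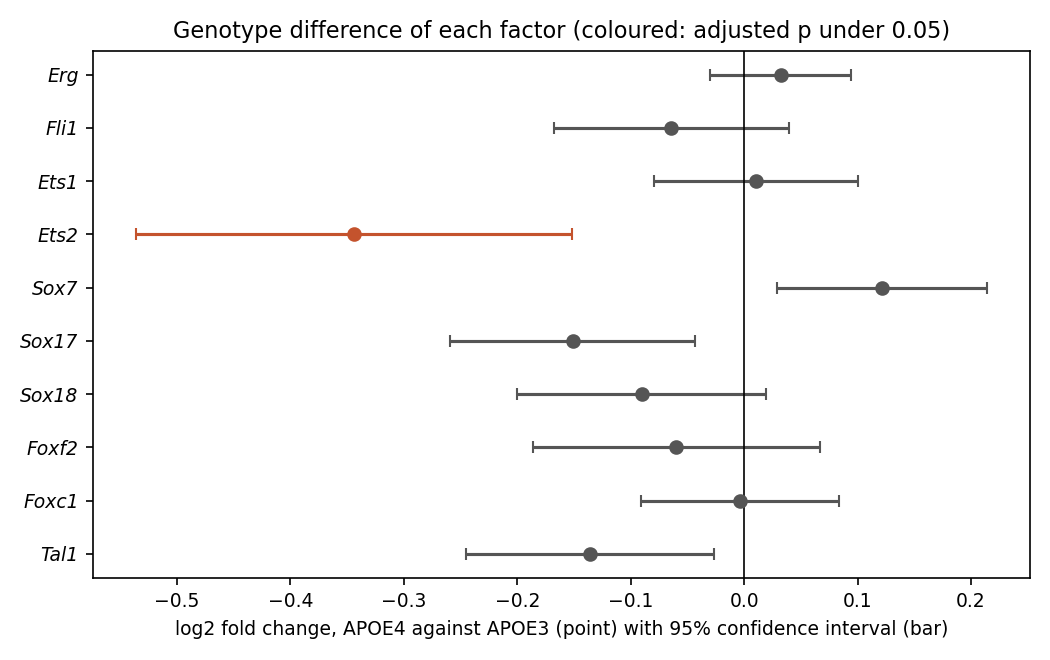
Log2 fold change of each factor, *APOE4* against *APOE3*, as points with 95% confidence intervals from the edgeR fit as bars; orange marks an adjusted p under 0.05. *Ets2* is at -0.34, and the remaining 9 lie between -0.15 and 0.12.

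The sex of the mice was compared within the same table. No difference between the female and the male genotype effect was called for any of the 10 factors or any gene tested (0%, edgeR quasi-likelihood interaction test, 345 genes at an unadjusted p under 0.05; DESeq2 also 0, with 308). *Ets2* was lower by similar amounts, with log2 fold changes of -0.34 in females and -0.35 in males, a difference of 0.02 (SE 0.190). With 4 cultures per group, edgeR called 0% of genes within females (2428 at an unadjusted p under 0.05) and 0% within males (1775), so neither was called alone. Between females and males edgeR called 0 of the 10 factors and 0.0721% of genes tested (9 genes, 550 at an unadjusted p under 0.05; DESeq2 10 genes). The lowest unadjusted p among the members were 0.0304 for *Foxc1* (log2 difference, female against male, -0.09) and 0.0319 for *Sox7* (0.09).

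Some of the members varied together, in 2 overlapping groups. Over the 16 cultures, with log2 CPM centred within each genotype, 34 of 45 pairs had a positive Pearson r (median 0.27) and 9 pairs passed a permutation test with Benjamini-Hochberg adjustment over the 45 pairs, all of them positive. With Spearman's rho 7 passed, and *Erg*, *Sox7* and *Foxc1* were in no pair that passed by either measure. How many pairs among all genes would pass was not computed, so these pairs are not shown to be particular to the members. The highest was *Sox18* with *Foxf2* (r = 0.88, rho = 0.90, permutation adjusted p = 0.00270 and 0.00495), and it was 0.81 without the 2 cultures farthest from the median of *Sox18*. Within *APOE3* this r was 0.86 and within *APOE4* 0.91.

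*Sox17* correlated with *Sox18* (r = 0.74, rho = 0.76, permutation adjusted p = 0.0170 and 0.0215) and with *Foxf2* (r = 0.75, rho = 0.69, permutation adjusted p = 0.0150 and 0.0441). Without the 2 farthest cultures these fell to 0.51 and 0.55. *Fli1* correlated with *Ets2* (r = 0.77, rho = 0.75, permutation adjusted p = 0.00450 and 0.0104) and with *Ets1* (r = 0.74, rho = 0.71, permutation adjusted p = 0.00889 and 0.0357). *Ets1* and *Ets2* had r = 0.69 and rho = 0.60 (permutation adjusted p = 0.0248 and 0.0765), so the rank test missed the threshold.

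*Tal1* correlated with members of both groups, with r = 0.77 to *Sox17*, 0.67 to *Ets2* and 0.58 to *Fli1*. Their rho were 0.65, 0.77 and 0.68 (permutation adjusted p of r 0.00889, 0.0487 and 0.0248, and of rho 0.0649, 0.0279 and 0.00990). *Ets1* had the lowest values, r = -0.49 with *Sox18* and -0.48 with *Foxf2*, and neither passed (permutation adjusted p = 0.234 and 0.249). When centred on genotype and sex 6 pairs passed, and those that no longer did were *Sox17* with *Foxf2* (r = 0.77, permutation adjusted p = 0.0530), *Ets2* with *Tal1* (r = 0.68, permutation adjusted p = 0.0824) and *Ets1* with *Ets2* (r = 0.70, permutation adjusted p = 0.0824).

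**Figure D4:**
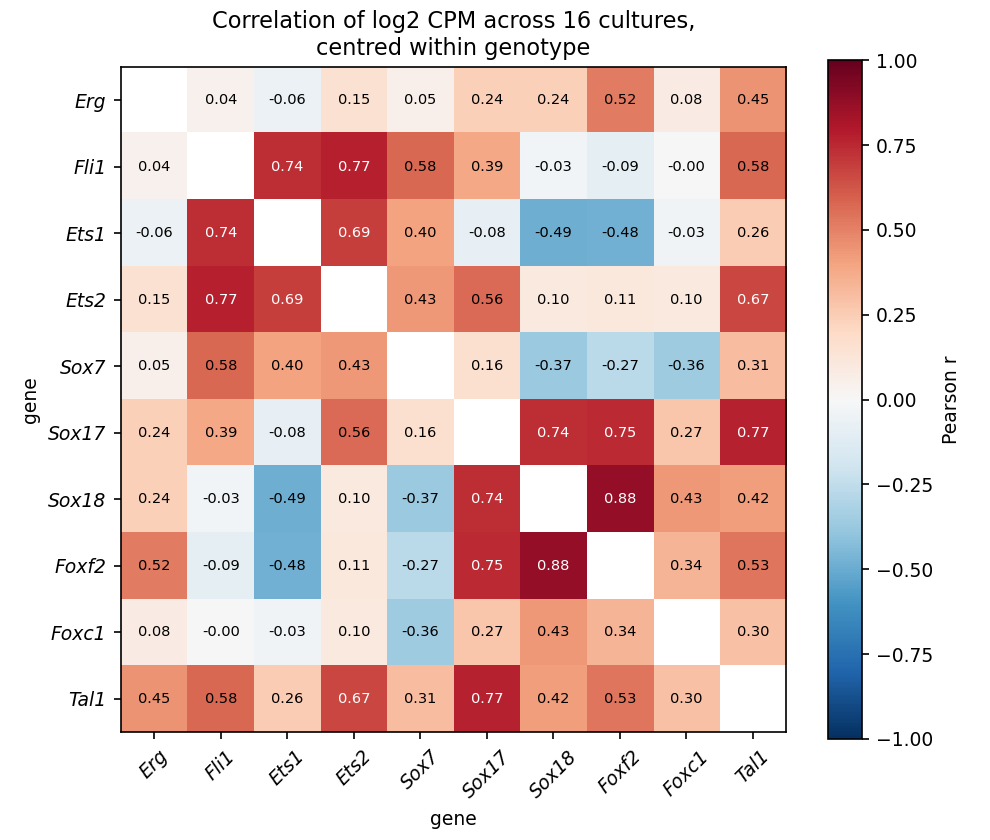
Pearson r of log2 CPM between the members over 16 cultures, centred within genotype, from -1 (blue) to 1 (red), with each r printed in its cell. *Sox17*, *Sox18* and *Foxf2* form 1 block, at 0.74 to 0.88, and *Fli1*, *Ets1* and *Ets2* another, at 0.69 to 0.77.

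RNA of cell cycle genes moved with the genotype. In the paper, neither cell density nor BrdU-positive nuclei, a mark of proliferation, differed between genotypes at confluence. The mean log2 CPM of 33 cell cycle genes was 5.67 ± 0.358 in *APOE3* and 6.28 ± 0.281 in *APOE4* (SD, n = 8). Of the 33, 30 were called higher and 0 lower, beside 6.71% and 6.09% of all genes tested. This list and that of the endothelial markers were written with earlier results of these data known, so their means are given with no test. The mean of the 23 endothelial markers was 9.19 ± 0.0423 in *APOE3* and 9.13 ± 0.0529 in *APOE4* (SD, n = 8). Of these, 1 was called higher (*Emcn*, a surface sialomucin) and 3 lower (*Egfl7*, *Ramp2* and *Slco1c1*), or 17.4% beside the 12.8% of all genes. With GC content and length corrected *Emcn* was no longer called (log2 fold change 0.09, edgeR adjusted p = 0.0872), and *Tek*, *Ocln* and *Slco1a4* were then called lower as well. Fitted with the cell cycle score as an added term, the log2 fold change of *Ets2* was -0.01 (edgeR adjusted p = 0.988), and with the endothelial score -0.13 (edgeR adjusted p = 0.474). In both fits edgeR called 0 of all genes (907 and 1652 at an unadjusted p under 0.05). The part of cell cycle state in the *Ets2* difference cannot be told apart from genotype here.

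Within genotypes *Ets2* was lower in cultures with a higher cell cycle score. The share of all genes tested that follow this score was not computed, so the relation is not shown to be particular to *Ets2* or the members. Of 20 relations of the members to both scores, chosen after the data were seen and centred within genotype, *Ets2* to the cell cycle score had r = -0.83 and rho = -0.89 (16 cultures, permutation adjusted p = 0.00120 and 0.000400). It was -0.88 within *APOE3*, -0.80 within *APOE4* and -0.73 without the 2 farthest cultures. *Sox17* had r = -0.76 and rho = -0.77 (permutation adjusted p = 0.00470 and 0.00500), *Tal1* -0.64 and -0.72 (0.0111 and 0.00550), and *Fli1* -0.63 and -0.70 (0.0433 and 0.0145).

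*Erg* (r = -0.18, rho = -0.13), *Sox7* (-0.09 and -0.12) and *Foxc1* (-0.16 and -0.29) did not pass, with permutation adjusted p of 0.568, 0.777 and 0.608 for r. *Sox18* (-0.53 and -0.49), *Foxf2* (-0.48 and -0.36) and *Ets1* (-0.40 and -0.37) did not pass either, with permutation adjusted p of 0.0756, 0.0772 and 0.188 for r and 0.127, 0.267 and 0.267 for rho. For *Erg* r was 0.17 within *APOE3* and -0.63 within *APOE4*. To the endothelial score the same 4 factors passed by r, *Tal1* at 0.81, *Ets2* at 0.79, *Sox17* at 0.73 and *Fli1* at 0.63 (rho 0.81, 0.86, 0.59 and 0.72). Their permutation adjusted p were 0.00130, 0.00470, 0.00784 and 0.0209 for r and 0.00400, 0.00160, 0.0625 and 0.00550 for rho. Both scores tended to run opposite ways. Replicate 35 had the highest cell cycle and lowest endothelial score of the *APOE4* cultures (6.76 and 9.05), and replicate 36 the reverse (5.94 and 9.23). In *APOE3* replicate 31 had the highest and lowest (6.24 and 9.14). Relations to the endothelial score are therefore not independent of those to the cell cycle score.

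**Figure D5:**
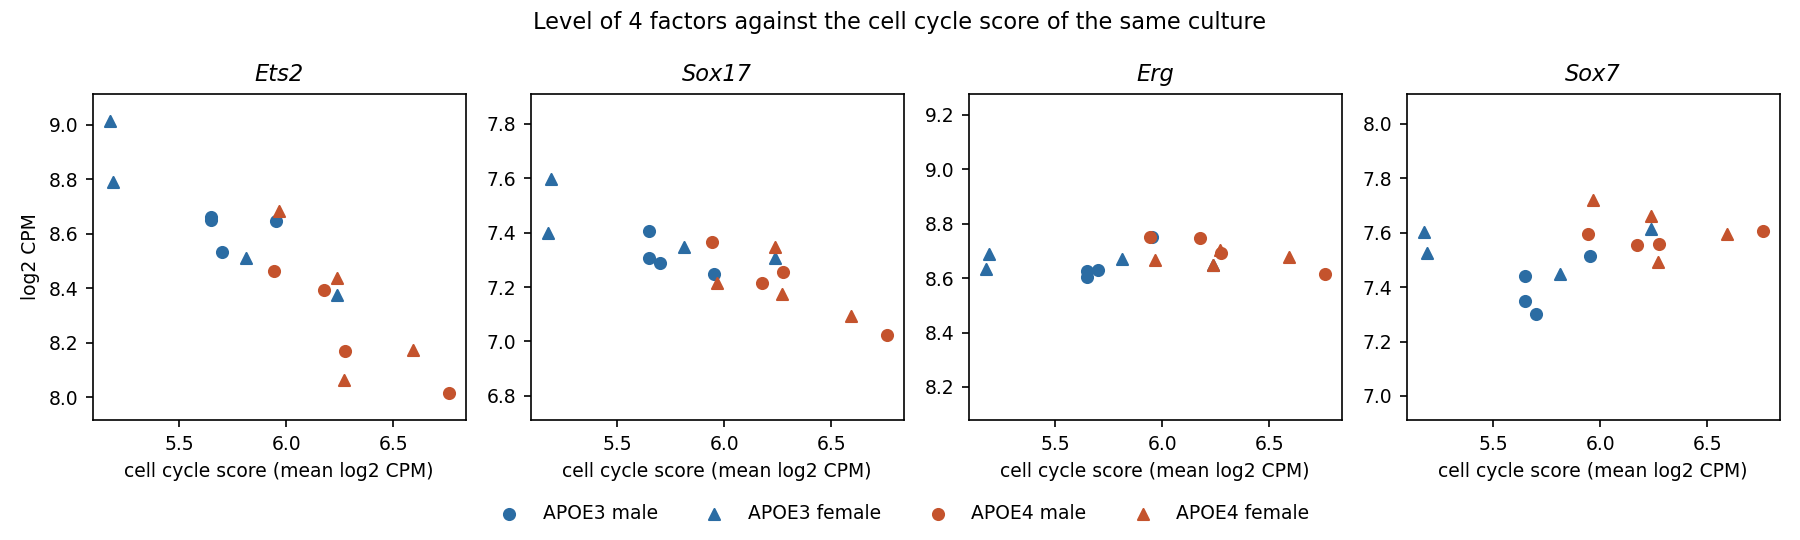
Log2 CPM of *Ets2*, *Sox17*, *Erg* and *Sox7* against the cell cycle score (mean log2 CPM of 33 genes) of the same culture, with circles for male and triangles for female mice, blue for *APOE3* and orange for *APOE4*; each vertical axis spans the same log2 range. *Ets2* and *Sox17* fall as the score rises, and *Erg* varies little.

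The relatives of the members were described from lists, beside 12.8% of all genes tested called, 6.09% lower and 6.71% higher. Of 22 other Ets factors 13 were tested and 1 was lower with *APOE4* (*Elk3*, a repressor, log2 fold change -0.12, adjusted p = 0.0260), with a list median of -0.02. *Spi1*, the Ets factor of myeloid cells, reached at most 1 count. Of 16 other Sox factors 5 were tested and 2 were lower, *Sox12* (-0.19, adjusted p = 0.0275) and *Sox5* (-0.63, at 3.07 and 1.97 mean CPM, adjusted p = 0.0369), with a median of -0.19. Of 42 other forkhead factors 19 were tested, 4 were lower and 1 was higher, with a median of -0.06. The one that rose was *Foxm1*, a driver of mitotic genes (0.55, adjusted p = 0.0143), and those that fell were *Foxl2* (-0.29), *Foxf1* (-0.19), *Foxj2* (-0.18) and *Foxo3* (-0.11).

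The partners and relatives of *Tal1* had 14 of 16 tested, with 4 lower, 0 higher and a median log2 fold change of -0.12. Those that fell were *Cbfa2t3* (-0.27), a corepressor of the complex, *Ldb2* (-0.23), *Ldb1* (-0.17), the bridging protein, and *Gata2* (-0.17), its DNA-binding partner, with edgeR adjusted p of 0.0281, 0.0492, 0.0140 and 0.0315. *Lmo2*, the LIM-domain subunit, was at -0.13 (adjusted p = 0.101). Of 20 other endothelial transcription factors 18 were tested and 3 were lower, *Klf4* (-0.39), a factor induced by laminar flow, *Foxl2* and *Gata2*, with 0 higher and a median of -0.10. *Epas1*, the hypoxia-inducible factor of endothelium, was highest per kb of this list (623 CPM per kb) and had a log2 fold change of -0.03 (adjusted p = 0.678). Of 21 endothelial genes known as targets of such factors, 2 were lower (*Egfl7*, -0.16, and *Robo4*, -0.12) and 1 higher (*Emcn*, 0.14), with a median of -0.03. The shares called were 7.69% of the other Ets, 40% of the other Sox and 26.3% of the other forkhead factors tested. They were 28.6% of the *Tal1* partners, 16.7% of the other endothelial factors and 14.3% of the targets, beside 12.8% of all genes. The lists overlap, and *Foxl2* and *Gata2* are each counted in 2 of them. Correcting for GC content and length ended some of the calls in these lists, with edgeR adjusted p of 0.0870 for *Sox12*, 0.0568 for *Foxo3*, 0.0629 for *Gata2*, 0.0551 for *Robo4* and 0.0872 for *Emcn*. It added *Foxn3* among the forkhead factors and *Tek*, the angiopoietin receptor, among the targets (log2 fold change -0.18, edgeR adjusted p = 0.0393).

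The genes nearest in pattern to each member were taken by Pearson r of uncentred log2 CPM over the 16 cultures, so genotype and cell cycle differences are in them, and they carry no p. For *Ets2* these were *Mat2a* (r = 0.97), *Snrk* (0.97) and *Slc7a5* (0.97), all 3 lower with *APOE4*. For *Sox17* they were *Fbxl12* (0.95), *AI480526* (0.92) and *Gata2* (0.92), and for *Tal1* *Epn2* (0.92), *Nab2* (0.91) and *Nr4a1* (0.90). *Sox18* was nearest to *Slc16a9* (0.93), *Foxq1* (0.91) and *Lyrm1* (0.91), and *Foxf2* to *Epas1* (0.92), *Atoh8* (0.90) and *Slc16a9* (0.88). *Fli1* was nearest to *Kcnj2* (0.88), *Pglyrp1* (0.87) and *Bcl2l11* (0.87), and *Ets1* to *Fam124b* (0.91), *Creb3l2* (0.89) and *Kit* (0.85). *Sox7* (*Laptm5*, 0.84), *Erg* (*Zfp449*, 0.81) and *Foxc1* (*Mtx3*, 0.73) had lower values.

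The members lie in pairs on 3 chromosomes (mm10, GENCODE vM21). *Erg* (chr16:95359169-95586593, minus strand) and *Ets2* (chr16:95702075-95721051, plus strand) are 115 kb apart, *Fli1* (chr9:32422204-32542861, minus) and *Ets1* (chr9:32636221-32757820, plus) 93.4 kb, and *Foxf2* (chr13:31625816-31631403, plus) and *Foxc1* (chr13:31806633-31812476, plus) 175 kb, with 0 protein-coding genes between. The r of log2 CPM centred within genotype between these neighbours was 0.15 for *Erg* and *Ets2*, 0.34 for *Foxf2* and *Foxc1* and 0.74 for *Fli1* and *Ets1*. *Sox7* is at chr14:63943673-63950732 (plus), *Sox17* at chr1:4490931-4497354 (minus), *Sox18* at chr2:181669836-181671640 (minus) and *Tal1* at chr4:115056426-115071755 (plus). *Stil*, a centriole gene 13230 bases before *Tal1*, was higher with *APOE4* (log2 fold change 0.73, edgeR adjusted p = 0.00679). Annotated antisense genes overlap *Fli1* (Gm27201) and *Ets1* (Gm27240), and Gm37587 overlaps *Sox17* on the other strand with at most 16 counts. Whether strand was used in counting is not given in the sources used here, so reads of such partners cannot be told apart.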

How the data were processed

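Counts per gene from 16 cultures were deposited by the authors as 1 table, with 39056 mouse genes and human *APOE*, not normalized. Per the labels, libraries came from 100 ng of total RNA with 17 PCR cycles. The submitters' processing notes name STAR and featureCounts, and the builds mm10 and hg38. Versions, annotation and strand setting are not given in the sources used here. Every column was mapped by its label and 0 were unmapped. Of the mouse identifiers 38872 were in GENCODE vM21, which gave symbols and exon lengths.

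Counts were fitted in R 4.3.3 with edgeR 4.0.16 (filterByExpr, TMM, genotype alone, quasi-likelihood test, Benjamini-Hochberg over 12481 genes, threshold 0.05). Alternatives used DESeq2 1.42.0, limma 3.58.1, other filters, covariates, GC and length correction, and each culture left out. The scripts were tested on simulated data. CPM used TMM library sizes and log2 CPM a prior count of 2. Correlations used 100000 permutations within genotype, two-sided. Confidence intervals are at 95%. Depth of 12717847 to 18624417 counts per culture bears on counting error only, and not on the spread between cultures. Reads carry no molecular identifiers, so copies made by PCR were not told apart. Each culture came from its own brain. Motifs were counted in RefSeq promoter windows (GRCm38.p6). Figures used matplotlib 3.10.9 in Python 3.11.15.

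The members and lists were chosen with earlier results of these data known. Named genes were all members, the called genes of each list with the largest changes (up to 5) and up to 3 by level per kb, the 3 genes nearest in pattern to each member, and annotated neighbours; from these the text names a part, and genes named in addition were chosen after their values were seen.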

Additional observations from a re-analysis of the deposited data

Results flagged for a closer look

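In *Sox17* 1 culture stood apart within its genotype. *APOE3* replicate 30, from a female mouse, was at 194 CPM, and the next highest *APOE3* culture at 169 CPM, a gap that was 0.583 of the range of the 8 cultures and above Dixon's 95% critical ratio for 8 values. It was 1 of 44 groups examined, and chance flags about 1 in 20 groups. The same culture had the highest *Tal1* (73.2 CPM), *Sox18* (816 CPM) and *Foxf2* (134 CPM) of the *APOE3* cultures. Without it the log2 fold change of *Sox17* was -0.11 (edgeR adjusted p = 0.127), beside -0.15 (0.0589) with all 16 cultures.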

How the results depend on the processing

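Of 250 alternative values of the members' log2 fold changes, 222 kept their direction and side of the threshold, 18 changed sign, 8 came past the threshold and 2 fell short of it. Across all genes the count of 1597 became 0 with the cell cycle score and 0 with the endothelial score as a covariate, and ranged from 846 to 2127 with 1 culture left out; the cause was not tested. The low values were 853 without *APOE3* replicate 30, 952 without *APOE3* replicate 33 and 846 without *APOE4* replicate 41. Members called lower were 0 and 0 with those scores, 2 with DESeq2's Wald test, and 1 to 3 with 1 culture left out. Members called higher were 1 with limma voom, and 0 to 1 with 1 culture left out. In the main fit *Fli1* was at -0.0642, *Foxf2* at -0.0597 and *Sox17* at -0.151. Values that changed sign were at most 0.0647 in size. With the cell cycle score they were 0.0637 for *Fli1*, 0.00974 for *Sox17*, 0.0269 for *Sox18*, 0.0647 for *Foxf2* and 0.0233 for *Foxc1*, with the endothelial score 0.0241 for *Fli1*, 0.0317 for *Foxf2* and 0.0237 for *Foxc1*, and with GC and length corrected -0.00968 for *Ets1* and 0.0254 for *Foxc1*. With 1 culture left out *Ets1* ranged from -0.0140 to 0.0346 and *Foxc1* from -0.0207 to 0.0186. Genes differing by sex were 9, and 4 with at least 10 counts in every library. No paired analysis was possible because the genotypes share no replicate numbers. Both scores differ by genotype themselves, so these fits cannot part them from it. Depth limits only the lowest genes, since every member had at least 673 counts in every culture.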
